A study of Mus musculus with 4 samples.

Results

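The interferon regulatory factors (IRFs) were examined in lymph node B cells of mice that over-express the microRNA miR-146a. The members were all probe sets whose platform annotation carried the symbol Irf1, Irf2, Irf3, Irf4, Irf5, Irf7, Irf8 or Irf9, which gave 12 of the 45037 probe sets and 8 of the 17097 genes measured. Irf3 had 3 probe sets, Irf4 and Irf8 had 2 each, and the other members had 1. Where a gene had several probe sets, the one with the greatest average signal stood for it. The TG group held 2 miR-146a transgenic mice and the WT group 2 wild type mice, with 1 Affymetrix array per mouse. All 4 mice were labelled as male Balb/C animals aged 6 to 8 weeks. The sources used here do not give the promoter of the transgene. B cells were enriched by removing the other cells with magnetic beads and by removing dead cells, so the samples are enriched cells and not sorted single populations.

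IRFs share an amino-terminal DNA-binding domain that recognises GAAA-containing elements in interferon-stimulated genes. Irf3, Irf5 and Irf7 are activated by kinases downstream of Toll-like receptors and cytosolic nucleic acid sensors and switch on interferon and cytokine genes. Irf9 is the DNA-binding part of the complex that answers type I interferon, Irf1 and Irf2 act as activator and antagonist on shared elements, and Irf4 and Irf8 guide B cell development, germinal centre and plasma cell fates together with Ets-family partners. miR-146a is known for restraining Toll-like receptor signalling, and IRF5 has been reported as one of its targets in human cells. The mature miR-146a-5p strand is shown because its seed, bases 2 to 8, sets which transcripts the transgene can pair with. It comes from RefSeq (GRCm38.p6, chr11:43374435-43374456, minus strand), with the seed in capitals.
mmu-miR-146a-5p: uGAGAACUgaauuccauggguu

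On the log2 scale the deposited signals spanned 2.02 to 13.03. The array of TG mouse 1 had a median of 4.48 and an upper quartile of 6.13, below the other 3 arrays with medians of 4.59 to 4.61 and upper quartiles of 6.51 to 6.55. TG mouse 2 lay nearer to the WT mice (Pearson r = 0.991 over probe sets) than to TG mouse 1 (r = 0.989), so values without each TG mouse stand beside the results that depend on it. Non-specific control probe sets averaged 2.83 to 2.95, so every IRF value below lay well above them. B cell markers were present on all arrays, and the mean log2 signal of 15 resting B cell genes was 8.83 and 9.02 in TG mice, against 9.86 and 9.90 in WT mice. T cell transcripts were abundant in all 4 samples, and the lowest value of any of 12 T cell markers on any array was 7.03. Globin RNA was abundant too, with a probe set of Hba-a1 at 11.62 to 12.35. The mean of the erythroid and platelet list was only 5.73 to 5.89. Cd8a, a co-receptor of cytotoxic T cells, stood at 10.02 and 10.09 in TG mice, against 8.80 and 9.02 in WT mice. Although all mice were labelled male, Xist, a long RNA of X inactivation in females, stood at 9.13 and 9.56 in TG mice, against 5.96 and 6.19 in WT mice (difference 3.27, limma adjusted p = 0.0446). The Y-linked Eif2s3y was present in all samples, at 7.80 and 8.00 in TG mice and 8.29 and 8.34 in WT mice. These differences in sex-linked transcripts follow the split into TG and WT, so they cannot be told apart from the genotype. Their part in the IRF differences was not tested. The number of arrays limits precision. An exact two-sided permutation test of 2 mice against 2 reaches 0.333 at best, and limma was used instead, since it pools information on the spread over the whole array.

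The comparison asked whether the IRF family differed between TG and WT B cells. All 8 members were lower in both TG mice than in both WT mice, where 31.4% of all genes were lower and 17.7% higher in this sense. Among the 12024 genes with a mean signal above the 40th percentile, to which all 8 members belong, 37.9% were lower and 15.2% higher. The median difference of the members was -0.48 on the log2 scale, against -0.05 over all genes and -0.11 over the brighter ones. Irf8, Irf7 and Irf5 were lower by 1.03 to 1.32 log2 units, and the other 5 members by 0.11 to 0.50. No member passed an adjusted p of 0.05 by limma as deposited, a threshold that 0.0466% of probe sets passed (0.00888% lower and 0.0377% higher), and 6 of the 8 had an unadjusted p under 0.05, where 14.1% of all genes did. After quantile normalization, which gives all arrays 1 distribution, Irf8, Irf7 and Irf5 fell past the threshold, where 1.93% of probe sets were called (1.04% lower and 0.893% higher). Median centring called the same 3 members, with 0.944% of probe sets lower and 1.36% called in all. With a gene's probe sets averaged only Irf8 was called lower, as were 0.0702% of genes (0.193% in all).

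**Figure D1:**
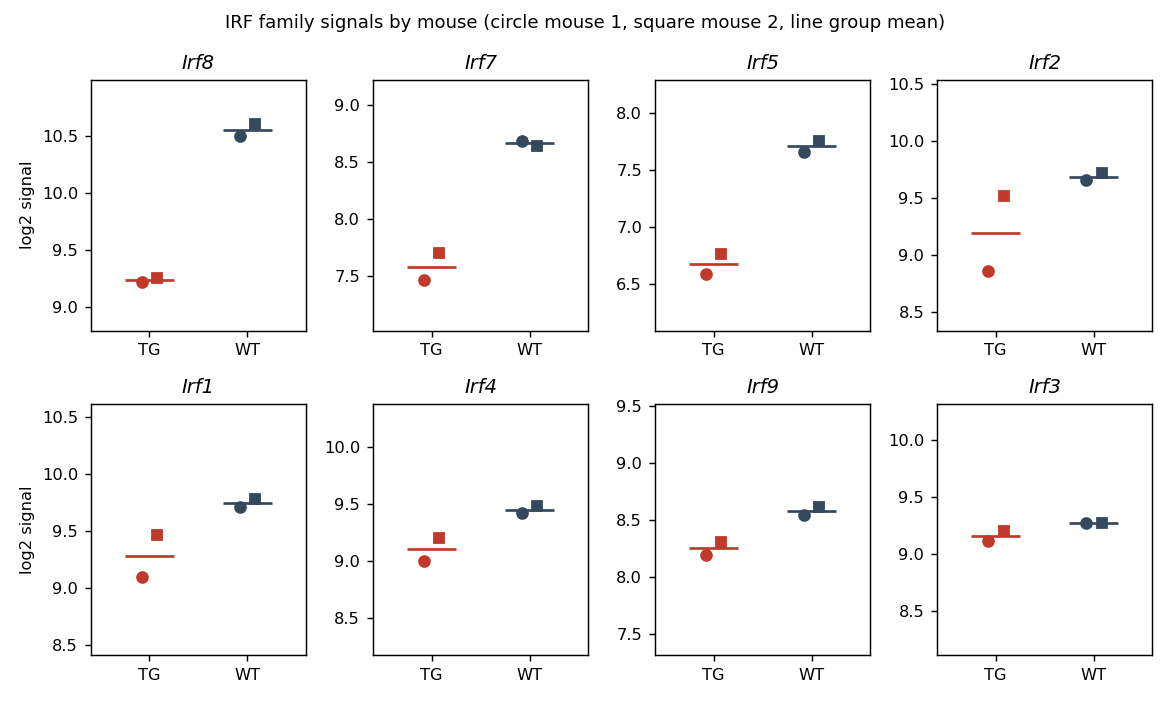
Log2 signal of the brightest probe set of each IRF gene in 2 TG mice (red) and 2 WT mice (dark blue), with a line at each group mean; every panel spans the same 2.2 log2 units. The groups are widely separated for Irf8, Irf7 and Irf5, while for Irf2 and Irf1 the 2 TG mice lie far from each other.

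Among the lineage factors, Irf8, which acts in B cells, monocytes and dendritic cells, had the largest difference of the family. Its brightest probe set (1416714_PM_at) read 9.21 and 9.25 in TG mice, against 10.49 and 10.61 in WT mice. The gap between the groups was far larger than the spread within either, and the difference was -1.32 (SE 0.10, 95% interval -1.59 to -1.05, limma adjusted p = 0.0796), a 2.49-fold lower signal. The other probe set of Irf8 (1448452_PM_at) read 8.63 and 8.72 in TG mice, against 9.74 and 9.76 in WT mice (difference -1.08, SE 0.10, limma adjusted p = 0.0935), so both probe sets gave the same direction without overlap. Of the 12024 brighter genes, 36 (0.299%) had a difference below that of Irf8.

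Irf4, the relative of Irf8 that is needed for plasma cell formation and class switching, differed much less. It read 9.003 and 9.21 in TG mice, against 9.42 and 9.49 in WT mice (1421173_PM_at, difference -0.35, SE 0.12, limma adjusted p = 0.329). Its dimmer probe set (1421174_PM_at) read 4.90 and 5.43 in TG mice, against 5.38 and 5.39 in WT mice, and there the groups overlapped. The 95% interval of the brighter probe set, -0.66 to -0.04, did not reach the upper bound of the Irf8 interval. Within an array the Irf8 signal relative to Irf4 is free of any shift of the whole array: this log2 ratio was 0.21 and 0.04 in TG mice, against 1.07 and 1.12 in WT mice, a difference of -0.97 with no overlap.

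Of the factors switched on by Toll-like receptors, Irf7 and Irf5 had differences close to each other. Irf7, the interferon-inducible amplifier of type I interferon production, read 7.46 and 7.70 in TG mice, against 8.68 and 8.64 in WT mice (1417244_PM_a_at). Its difference was -1.08 (SE 0.12, 95% interval -1.40 to -0.76, limma adjusted p = 0.105), a 2.12-fold lower signal. Irf5, which drives inflammatory cytokine genes, read 6.59 and 6.77 in TG mice, against 7.66 and 7.76 in WT mice (1460231_PM_at). Its difference was -1.03 (SE 0.12, 95% interval -1.34 to -0.73, limma adjusted p = 0.105), a 2.04-fold lower signal. In both genes the TG mice were below the WT mice by far more than the mice of 1 group differed, and 0.749% and 0.923% of the brighter genes had a lower difference than Irf7 and Irf5. Sequences that would show miR-146a sites in Irf5 were not used here, so pairing was not analysed.

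Irf3, the constitutively present partner of Irf7 in the first wave of interferon induction, was nearly level on its brighter probe sets. The brightest (1426111_PM_x_at) read 9.12 and 9.21 in TG mice, against 9.27 and 9.27 in WT mice (difference -0.11, SE 0.10, 95% interval -0.37 to 0.15, limma adjusted p = 0.654). This difference turned to 0.029 after quantile normalization, and the suffix of that probe set marks probes that can match other transcripts. A second probe set (1416898_PM_a_at) read 7.28 and 7.41 in TG mice, against 7.41 and 7.36 in WT mice, where the groups overlapped. The dimmest (1438721_PM_a_at) read 4.89 and 5.82 in TG mice, against 6.40 and 6.33 in WT mice (difference -1.01, SE 0.32, limma adjusted p = 0.307), so the Irf3 probe sets disagreed. The log2 ratio of Irf7 to Irf3 within an array, on their brightest probe sets, was -1.66 and -1.51 in TG mice, against -0.59 and -0.63 in WT mice, a difference of -0.97.

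The members that act in interferon signalling differed by less. Irf9, the DNA-binding subunit of the type I interferon complex, read 8.20 and 8.31 in TG mice, against 8.55 and 8.61 in WT mice (1421322_PM_a_at, difference -0.33, SE 0.10, limma adjusted p = 0.308). Irf1, an activator induced by interferon gamma, read 9.10 and 9.47 in TG mice, against 9.71 and 9.79 in WT mice (1448436_PM_a_at, difference -0.46, SE 0.15, limma adjusted p = 0.321). Irf2, which competes with Irf1, read 8.86 and 9.52 in TG mice, against 9.66 and 9.72 in WT mice (1418265_PM_s_at, difference -0.50, SE 0.24, limma adjusted p = 0.442). For Irf1 and Irf2 much of the difference came from TG mouse 1: without it the differences were -0.28 and -0.16, and without TG mouse 2 they were -0.65 and -0.83. The log2 ratio of Irf1 to Irf2 overlapped between the groups, at 0.24 and -0.06 in TG mice and 0.05 and 0.07 in WT mice.

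Of 7 within-array ratios compared, 5 did not overlap between the groups. Those 5 each had an exact two-sided permutation p of 0.333, the smallest this design allows (0.467 after Benjamini-Hochberg adjustment over the 7). Several ratios share a member, so they are not separate observations. The share without overlap over all gene pairs was not computed. Over all single genes, 31.4% were lower and 17.7% higher without overlap. Irf7 relative to Irf9 was lower by 0.75 in TG mice, and Irf5 relative to Irf3 by 0.92. These ratios compare how far genes differed, since signals of different probe sets are not comparable as amounts of RNA.

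Calls of single members depended on which array was left out. Without TG mouse 1, Irf8 (-1.30), Irf7 (-0.97) and Irf5 (-0.94) passed by limma (adjusted p = 0.00696, 0.00844 and 0.0103), where 9.19% of probe sets were called and 5.16% called lower. Without TG mouse 2, every member except Irf3 passed, where 42.4% of probe sets were called and 32.9% called lower. Leaving out WT mouse 1 or WT mouse 2 left 0 probe sets called by limma, with 1631 and 1576 of them under an unadjusted p of 0.05, while the Irf8 difference was -1.37 and -1.26. In the fits without a TG mouse the spread came from the WT pair alone, which lay close together (Pearson r = 0.998 over probe sets, against 0.989 for the TG pair), and the lone mouse was assumed to vary like the others.

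Resting B cell transcripts were lower in the same arrays, and in bulk samples fewer B cells and less RNA per B cell cannot be told apart. All 15 measured genes of the resting B cell list were lower in both TG mice than in both WT mice, as were 31.4% of all genes. The list's median difference was -1.01. None of the 15 passed limma as deposited, and 14 had an unadjusted p under 0.05, as had 14.1% of all genes. After quantile normalization 10 were lower past the threshold, as were 1.04% of probe sets. Blk, a Src-family kinase of B cells, differed by -1.31 (SE 0.12) and Btk, which relays antigen receptor signals, by -1.07 (SE 0.10, limma adjusted p = 0.0935 for each). Irf7 and Irf5 thus differed by nearly the median of the B cell list, Irf8 by more and the other 5 members by less. Single genes of the list ran from -1.41 (Cd79a) to -0.34. That range held Irf8, Irf7, Irf5, Irf2, Irf1 and Irf4, but not Irf9 and Irf3.

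To show this directly, each array was centred on the mean of the 15 B cell genes. Relative to them, Irf8 differed by -0.37, Irf7 by -0.13 and Irf5 by -0.08. On the same scale Irf2 differed by 0.45, Irf1 by 0.49, Irf4 by 0.60, Irf9 by 0.62 and Irf3 by 0.84, which turned the sign of these 5. The dimmer probe set of Irf8 differed by -0.13. This centring moved the median of all genes to 0.90, and 94.3% of probe sets were then called, so no test is read from it. The part of the B cell list in the IRF differences was not tested.

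**Figure D2:**
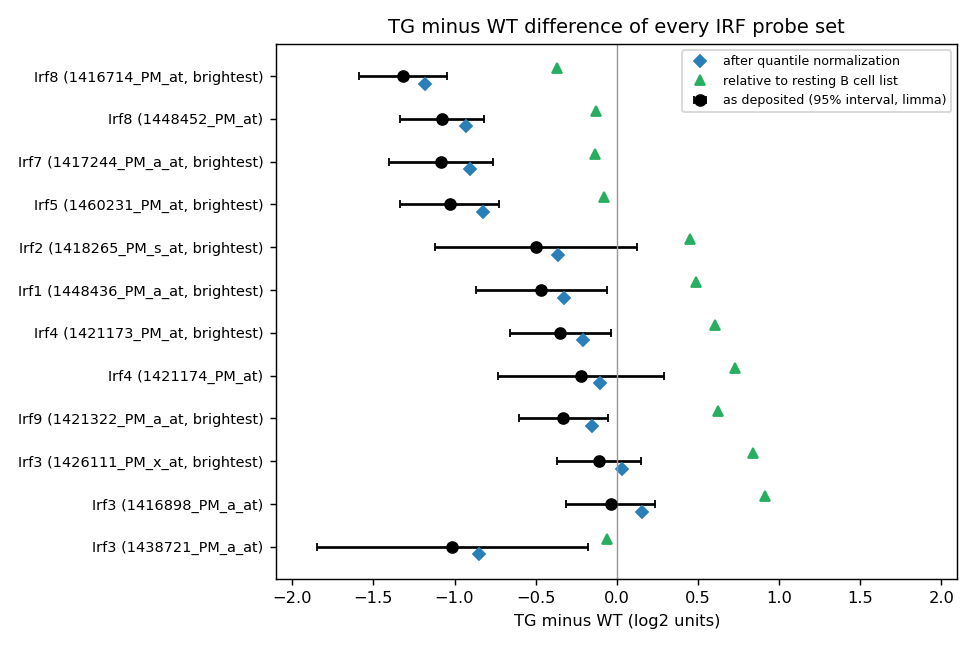
TG minus WT difference in log2 units for all 12 IRF probe sets, as deposited with 95% limma intervals (black), after quantile normalization (blue diamonds) and relative to the resting B cell list (green triangles). As deposited, Irf8, Irf7 and Irf5 lie near or below -1, while the brighter probe sets of the other members lie between -0.50 and -0.04. Relative to the B cell list, Irf7 (-0.13), Irf5 (-0.08) and the dimmer Irf8 probe set (-0.13) differ little. The brightest Irf8 probe set differs from that list by -0.37.

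Mean signals of the neutrophil, T cell, monocyte and macrophage, natural killer, and erythroid and platelet lists were higher in both TG mice. The plasma cell list was lower, at 6.91 and 7.08 in TG mice, against 7.29 and 7.23 in WT mice. The plasmacytoid dendritic cell list, given further below, was lower too. Over all genes, 17.7% were higher and 31.4% lower without overlap. The neutrophil list (12 genes) had a mean signal of 5.94 and 6.19 in TG mice, against 4.83 and 4.86 in WT mice, with 11 members higher without overlap. Ngp, a neutrophil granule protein, rose by 2.77 (limma adjusted p = 0.0219), the only neutrophil gene past the threshold, and S100a9 differed by 2.53. The T cell list (12 genes) stood at 9.78 and 9.97 in TG mice, against 9.52 and 9.59 in WT mice, with 10 members higher and 1, Cd4, lower without overlap. Cd4 differed by -0.79 on its brightest probe set and by -0.078 on the other, where the groups overlapped, while the probe sets of Cd8a differed by 0.64 to 1.90. The monocyte and macrophage list (10 genes) stood at 5.44 and 5.57 in TG mice, against 5.13 and 5.15 in WT mice, with 6 members higher, among them Ccr2 (1.19, and 0.20 to 0.93 on its other probe sets) and Cd14 (0.97). The natural killer list (10 genes) stood at 7.47 and 7.82 in TG mice, against 7.41 and 7.46 in WT mice. TG mouse 1 barely exceeded WT mouse 2, and 5 members were higher and 1 lower without overlap. Eomes differed by 1.18 and Gzma by -0.96. The erythroid and platelet list (6 genes) stood at 5.79 and 5.89 in TG mice, against 5.73 and 5.74 in WT mice. It had 3 members higher and 1 lower without overlap. Hba-a1 differed by 0.34, its other probe sets by 0.49 and 0.71, and Alas2 by 0.28. No marker was listed at 0, and the lowest single value of these lists was 2.72, at the level of the control probe sets. T cells and myeloid cells also express several IRFs, and the part of these cells in the IRF differences was not tested.

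**Figure D3:**
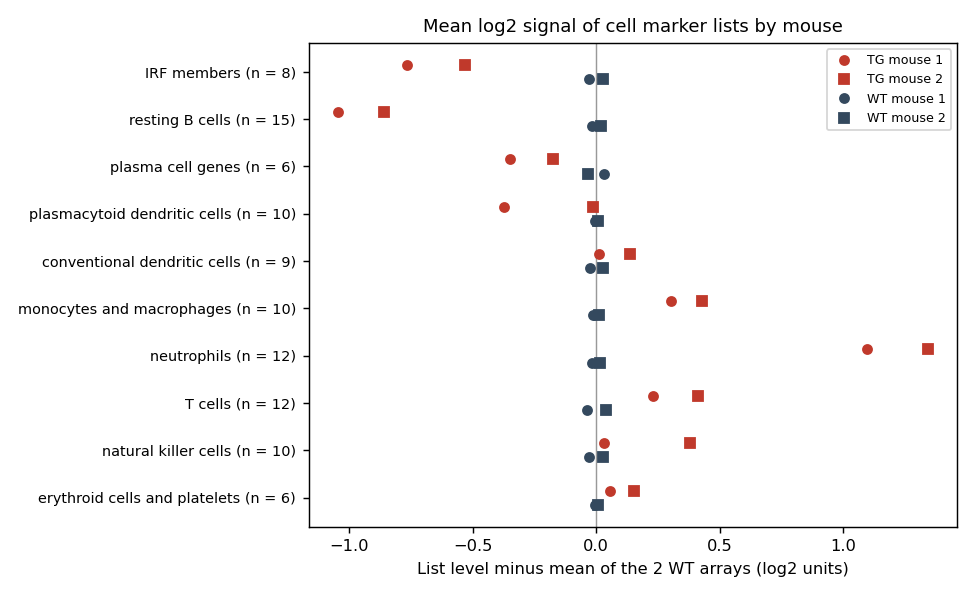
Mean log2 signal of the IRF members and of each marker list in every mouse, minus the mean of the 2 WT mice (red TG above dark blue WT; circle mouse 1, square mouse 2). The IRF members and the resting B cell, plasma cell and plasmacytoid lists lie below the WT mice in both TG mice. For the plasmacytoid list TG mouse 2 lies close to the WT mice. The neutrophil list lies more than 1 log2 unit above the WT mice.

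The DNA-binding partners through which Irf4 and Irf8 act ranged from -1.40 to 0.53. Of 12 partners, 7 were lower and 3 higher without overlap, where 31.4% of all genes were lower and 17.7% higher, and these shares apply to each list that follows. The median of the partners was -0.16 (-0.062 after quantile normalization and -0.090 with probe sets averaged), and none passed limma as deposited (6 had an unadjusted p under 0.05, as had 14.1% of all genes). Spib, the Ets factor that recruits Irf4 and Irf8 to composite elements in B cells, read 8.53 and 9.24 in TG mice, against 10.27 and 10.30 in WT mice (difference -1.40, SE 0.25, limma adjusted p = 0.169). Spi1, which encodes PU.1, the other such Ets factor, read 6.94 and 6.93 in TG mice, against 7.83 and 8.03 in WT mice (difference -0.996, SE 0.11, limma adjusted p = 0.106). Irf8 relative to Spi1 differed by -0.32 without overlap, whereas Irf8 relative to Spib overlapped between the groups. Tcf3, the E protein E2A, differed by -0.51, and Jun, an AP-1 subunit, by 0.53, though the dimmer Jun probe set differed by 0.13. After quantile normalization Spib was lower (-1.25, limma adjusted p = 0.0338) and Jun higher (0.67, adjusted p = 0.0479).

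Upstream of the IRFs, 19 sensors, adaptors and kinases were measured, with differences from -1.08 to 0.19. Of these, 11 were lower and 1 higher without overlap (median -0.24), and none passed limma as deposited (5 had an unadjusted p under 0.05). The median was -0.067 after quantile normalization, -0.069 without TG mouse 1 and -0.39 without TG mouse 2. Unc93b1, the chaperone of endosomal Toll-like receptors, read 8.23 and 8.47 in TG mice, against 9.34 and 9.37 in WT mice (difference -1.01, SE 0.12, limma adjusted p = 0.113). Slc15a4, a lysosomal transporter needed for Irf5 activation by these receptors, differed by -0.95, though its dimmer probe set differed by 0.06. Tlr7, a receptor for single-stranded RNA, differed by -0.70, and its other probe sets by -1.11 and -1.30. Dhx58, a helicase that modulates RNA sensing, differed by -1.08, but its other probe sets by -0.13 and 0.05. The kinases that phosphorylate Irf3, named after their values were seen, differed by -0.26 (Tbk1) and 0.09 (Ikbke). After quantile normalization Unc93b1, Slc15a4 and Dhx58 were lower past the threshold (limma adjusted p = 0.0279, 0.0313 and 0.0366).

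The receptor and STAT genes that act through Irf9 gave no common direction. Of 8 measured, 2 were lower and 1 higher without overlap, the median was -0.12, and none passed limma (2 had an unadjusted p under 0.05). The median turned to 0.060 after quantile normalization and to 0.054 without TG mouse 1, and was -0.41 without TG mouse 2. Stat2, the partner of Irf9, read 5.15 and 5.46 in TG mice, against 5.85 and 6.04 in WT mice (difference -0.63, SE 0.15), and a dimmer probe set differed by -0.33. Ifngr1, the ligand-binding chain of the interferon gamma receptor, was higher by 0.45, Ifnar1 differed by -0.34, and Tyk2 by -0.21. Among 8 corepressors and brakes (median -0.16, 0.010 after quantile normalization, -0.095 without TG mouse 1 and -0.26 without TG mouse 2), 5 were lower and 2 higher without overlap and none passed limma (1 had an unadjusted p under 0.05). Usp18, an inhibitor of interferon receptor signalling, differed by -0.59, Rbck1, an E3 ligase component reported to promote turnover of Irf3, by -0.50, Socs1, a suppressor of Janus kinases, by 0.38, and Irf2bp1, a corepressor that binds Irf2, by -0.28.

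Of 23 measured type I interferon response genes, which IRFs bind and induce, 18 were lower without overlap and none higher, against 31.4% lower and 17.7% higher over all genes and 37.9% and 15.2% over the brighter ones. The median was -0.32, and -0.53 over the 21 genes left by the filter on dim probe sets. It was -0.29 after quantile normalization, -0.29 without TG mouse 1 and -0.49 without TG mouse 2. None passed limma as deposited (13 had an unadjusted p under 0.05, as had 14.1% of all genes). Oas2, of the oligoadenylate synthetase family, read 6.02 and 6.14 in TG mice, against 7.03 and 6.97 in WT mice (difference -0.92, SE 0.10, limma adjusted p = 0.106). Oasl1, known to restrain translation of Irf7, differed by -0.90, Mx1, an antiviral GTPase, by -1.22, and Ifit3, a partner of the RNA-binding Ifit1, by -1.25. After quantile normalization Oasl1, Mx1 and Ifit3 were lower past the threshold (limma adjusted p = 0.0484, 0.0366 and 0.0313). Relative to the B cell list these 4 genes differed by 0.034, 0.056, -0.27 and -0.30.

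Interferon gamma and Irf1 response genes were lower with a median of -0.33 over 14 measured. Of these, 10 were lower and 1 higher without overlap, and none passed limma as deposited (4 had an unadjusted p under 0.05). Ciita, the class II transactivator, read 7.14 and 7.69 in TG mice, against 8.79 and 8.84 in WT mice (difference -1.40, SE 0.20, limma adjusted p = 0.137), and its other probe sets differed by -0.84 and -1.43. Ciita passed after quantile normalization (-1.22, limma adjusted p = 0.0212). Cxcl9, an interferon gamma chemokine, differed by -0.81, and the GTPases Irgm1 and Iigp1 by -0.47 and -0.84. Without TG mouse 1 the list's median was -0.091, without TG mouse 2 it was -0.53, and after quantile normalization -0.20.

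Genes reported elsewhere as targets of IRF8 included 2 whose differences matched that of Irf8 in size. Genes outside this list did so too, such as Blk (-1.31) and Spib (-1.40). Of 9 reported targets measured, 5 were lower and 1 higher without overlap (median -0.26). None passed limma as deposited (5 had an unadjusted p under 0.05). Cybb, the catalytic subunit of the phagocyte oxidase, read 8.02 and 8.25 in TG mice, against 9.58 and 9.57 in WT mice (difference -1.44, SE 0.12, limma adjusted p = 0.081), and its other probe sets differed by -1.70 and -0.39. Pml, the organiser of nuclear bodies, read 7.02 and 7.29 in TG mice, against 8.40 and 8.49 in WT mice (difference -1.29, SE 0.13, limma adjusted p = 0.0935), and its other probe set differed by -1.31. Both passed after quantile normalization (limma adjusted p = 0.0139 and 0.0206). Relative to the B cell list Cybb differed by -0.49 and Pml by -0.34. Bcl6, the germinal centre repressor, differed by -0.50 with a dimmer probe set at 0.19, and Klf4 by 0.41 with a dimmer probe set at 0.08. Without TG mouse 1 this list's median was -0.12, without TG mouse 2 it was -0.45, and after quantile normalization -0.11.

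For the plasma cell program that needs Irf4, 6 genes were measured, of which 3 were lower and 1 higher without overlap (median -0.26), near the 37.9% lower and 15.2% higher among the brighter genes. None passed limma as deposited (4 had an unadjusted p under 0.05). Jchain, the joining chain of secreted antibodies, differed by -0.65 (SE 0.11), Txndc5, an endoplasmic reticulum oxidoreductase, by -0.87 (SE 0.16) with another probe set at -0.26, and Derl3 by -0.34. Prdm1, which encodes Blimp-1, the regulator of plasma cell fate, read 5.21 and 5.46 in TG mice, against 5.05 and 4.76 in WT mice, a difference of 0.43 (SE 0.16, limma adjusted p = 0.356) opposite in sign to that of Irf4.

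**Figure D4:**
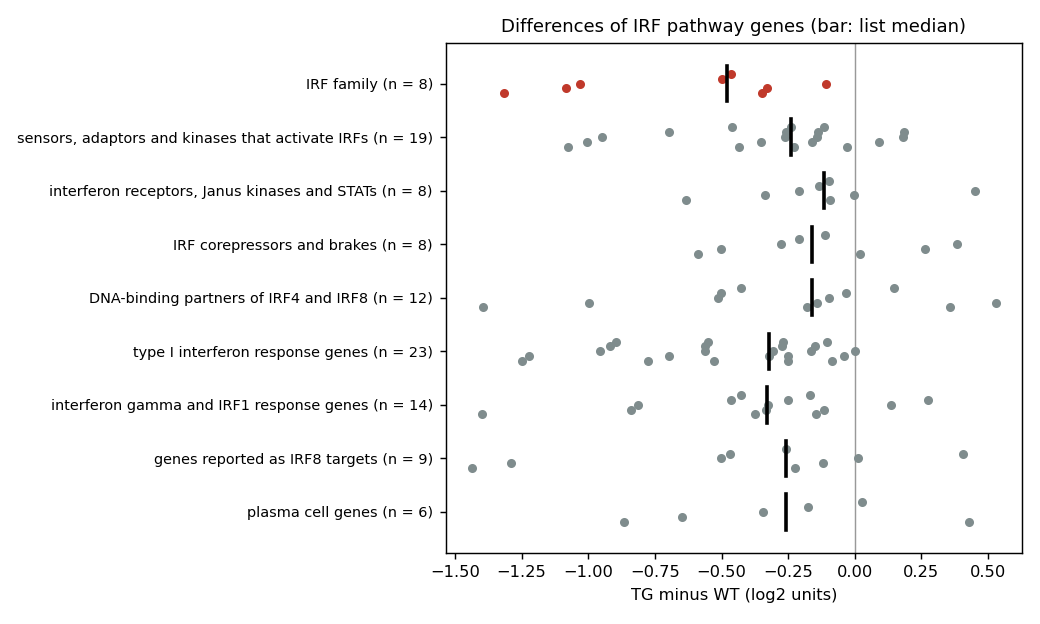
TG minus WT difference in log2 units, as deposited, of each IRF member (red) and each measured gene of 8 related lists (grey), with the list median as a black bar; vertical scatter only separates points. All list medians lie between -0.12 and -0.48, and over all genes the median was -0.05.

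The genes most like Irf8, Irf7 and Irf5 were sought among 12023 other brighter genes over the 4 arrays, each gene centred on its own mean, by root mean square distance. For Irf8 the nearest were Rgl1 (distance 0.0440, difference -1.30), Lyl1 (distance 0.0523, difference -1.36) and Dnah8 (distance 0.0692, difference -1.37), and 7 genes lay within 0.1 log2 units. For Irf7 they were Marchf1 (distance 0.0227, difference -1.06), Pou2af1 (distance 0.0380, difference -1.097) and Btk (distance 0.0421, difference -1.07), with 55 genes within 0.1. For Irf5 they were Mgrn1 (distance 0.0315, difference -0.99), Igkv6-15 (distance 0.0322, difference -1.02) and Unc93b1 (distance 0.0336, difference -1.01), with 64 genes within 0.1. Irf5 and Irf7 were 0.0577 apart, which placed Irf5 as the 11th nearest gene to Irf7, while Irf7 and Irf5 were the 27th and 32nd nearest to Irf8. Pou2af1, a B cell co-activator, and Btk belong to the resting B cell list used above. Genes with similar TG minus WT differences lie close largely by construction, so this is no separate observation.

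Promoters were searched because interferon induces several IRF genes through known elements. The 250 bases before each annotated start (RefSeq, GRCm38.p6, the C57BL/6J genome) were available for all 8 members, in 11 windows. Motifs were searched on both strands: the core of the interferon-stimulated response element (ISRE: GAAA, any 2 bases, GAAA), the Ets-IRF composite core (GGAA, any 2 bases, GAAA) and the STAT element GAS (TTCNNNGAA). GAS was found in 3 members, Irf1, Irf2 and Irf8, and in 8.13% of all 27025 genes with a window. The ISRE core was found only in Irf2 among the 8 members (3.46% of all genes), and so was the composite core (2.68% of all genes), which overlaps it there. The promoters of Irf1 (chr11:53769914-53769942, plus strand) and Irf2 (chr8:46739495-46739539, plus strand) are shown around the matches, and that of Irf8 (chr8:120736108-120736357, plus strand) in full because Irf8 had the largest difference. Capitals mark the motif matches.
Irf1: acagcctgatTTCCCCGAAatgatgaggc
Irf2: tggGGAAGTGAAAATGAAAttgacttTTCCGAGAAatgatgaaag
Irf8: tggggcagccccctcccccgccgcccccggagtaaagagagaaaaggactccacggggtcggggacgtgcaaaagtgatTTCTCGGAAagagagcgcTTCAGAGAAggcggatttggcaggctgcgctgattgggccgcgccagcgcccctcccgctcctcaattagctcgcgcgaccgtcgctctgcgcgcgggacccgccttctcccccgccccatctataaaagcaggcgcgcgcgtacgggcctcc

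The Irf8 window held 2 GAS matches, which start 171 and 153 bases before the annotated start, and the Irf1 match starts 90 bases before it. None of the motifs was found in the windows of Irf3, Irf4, Irf5, Irf7 and Irf9. A match is only a run of letters, and binding was not measured.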

How the data were processed

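Total RNA of lymph node B cells was hybridised to 4 Affymetrix arrays after 3'-primed biotin labelling, per the labels' protocols. The authors deposited log2 signals, 1 per probe set and array. Background correction, normalization and probe summary are not given in the sources used here; base 2 was read from the range. Of 45141 probe sets, 104 controls were set aside. The platform annotation gave 28898 probe sets 1 gene, 551 several and 15588 none, and 28689 matched RefSeq GRCm38.p6 by Entrez ID with no symbol changed.

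The TG minus WT difference was fitted in R 4.3.3 with limma 3.58.1 by lmFit and eBayes, with 2 residual and 2.69 prior degrees of freedom. Two-sided p-values were adjusted by Benjamini-Hochberg over the 45037 probe sets, at a threshold of 0.05. The fit was also run on simulated arrays that obey limma's assumptions, so that run cannot show whether the real arrays obey them. SE and 95% intervals are limma's. Motifs and ratios were computed in Python 3.11.15 and figures drawn with matplotlib 3.10.9. Members, lists, ratios and tests were chosen with earlier results of these data known. Named genes were all members, the 4 of smallest p in each pathway list, the 2 of smallest p in each marker list and the 3 nearest genes of the 3 members with the largest differences. Genes of the lists without a probe set of their own were not analysed here. Mice carry the numbers 1 and 2 in both groups, but nothing in the labels pairs them, and deviations from the group means correlated by only 0.0145 between arrays of the same number, so the fit has no replicate block. Alternatives were quantile normalization, median centring, centring on the B cell list, a filter on dim probe sets, trended and robust eBayes, the replicate block, the mean of a gene's probe sets, an adjusted p of 0.1, and leaving out each array. No set test was run.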

Additional observations from a re-analysis of the deposited data

How the results depend on the processing

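The number of probe sets past the threshold was 21 as deposited (17 higher, 4 lower), 870 after quantile normalization (402 higher, 468 lower), 614 after median centring (189 higher, 425 lower), 51 with the filter on dim probe sets and 139 at an adjusted p of 0.1. With arrays left out it ran between 0 and 19110, and with the replicate block 15 passed by limma. With the replicate block, limma called no IRF member, as without it (Irf8 adjusted p = 0.172), and the differences keep their values by construction. After quantile normalization Irf8 (-1.18), Irf7 (-0.90) and Irf5 (-0.83) passed and Irf3 turned to 0.029. After median centring the same 3 passed, at -1.26, -1.03 and -0.98. As the mean of its probe sets Irf8 passed at -1.20 (limma adjusted p = 0.0359, tested over 17097 genes). Centred on the B cell list, the differences were -0.37 for Irf8, and turned to 0.49 for Irf1, 0.45 for Irf2, 0.84 for Irf3, 0.60 for Irf4 and 0.62 for Irf9. Over the 4 fits with 1 array left out, differences ran from -0.65 to -0.28 for Irf1, -0.83 to -0.16 for Irf2, -0.15 to -0.07 for Irf3, -0.45 to -0.24 for Irf4, -1.12 to -0.94 for Irf5, -1.20 to -0.97 for Irf7, -1.37 to -1.26 for Irf8 and -0.38 to -0.27 for Irf9. The median of the receptor and STAT list was 0.060 after quantile normalization and -0.41 to 0.054 with 1 array left out. After quantile normalization that of the brakes was 0.010 and that of the DNA-binding partners -0.062. Median centring gave -0.063 for the receptor and STAT list, -0.106 for the brakes and -0.107 for the partners. The median of interferon gamma and Irf1 response genes was -0.53 to -0.091 with 1 array left out. The lists' other moves of over 1.5 times stand beside their medians. Quantile normalization also moved the median of all genes from -0.05 to 0.020, and that of the brighter genes from -0.11 to 0.025. Apart from the centring steps, whose construction shifts all genes, the cause of the lists' and members' moves was not tested. Trended and robust eBayes and the filter on dim probe sets changed no member's side of the threshold. Signal over background did not limit the members, whose brightest probe sets all read above 6.5.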

Other observations

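Dendritic cells also depend on Irf8, and plasmacytoid ones on Irf7 for interferon production. The conventional dendritic cell list (9 measured genes) had a mean signal of 5.25 and 5.38 in TG mice, against 5.22 and 5.27 in WT mice, with a median difference of 0.10. In it Cd209a, a lectin, read 5.35 and 5.58 in TG mice, against 4.97 and 5.05 in WT mice, and Flt3, a growth factor receptor of dendritic cell progenitors, read 6.56 and 6.34 in TG mice, against 6.76 and 6.87 in WT mice. The plasmacytoid list (10 measured genes) stood at 6.13 and 6.49 in TG mice, against 6.50 and 6.51 in WT mice, with a median of -0.26 and 6 members lower and 3 higher without overlap, where 31.4% of all genes were lower and 17.7% higher. Tcf4, the E protein that maintains plasmacytoid cells and is also found in B cells, differed by -0.75, with its other probe sets at -1.02 and -0.24. Klk1 differed by -0.82, with its other probe sets at -0.95 and 0.08, and it passed after quantile normalization (-0.59, limma adjusted p = 0.0495). None of these genes passed limma as deposited. An unadjusted p under 0.05 was found for 2 conventional and 3 plasmacytoid genes, and for 14.1% of all genes. The part of dendritic cell genes in the Irf8 and Irf7 differences was not tested.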
